A study of Danio rerio with 9 samples.

Results

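Chromatin modifiers and remodellers are the proteins that write, remove and read chemical marks on histones and DNA, or that move and evict nucleosomes. They were taken here as the genes whose platform symbol begins with a family name such as hdac, kdm, kmt, setd, dnmt, tet, smarc, chd, brd, ezh, suz12, cbx, arid, prmt, kat or hmg. Each gene was represented by its probe set with the highest mean signal over all arrays. This gave 104 genes of the 8793 genes with a named probe set. No tet, ehmt, ep300 or ring1 gene was among them. The rule reads names and mean signal.

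Signals were compared between 6 arrays of the hMYC-ER model and 3 arrays of the hlk model, numbered 1 to 6 and 7 to 9 as in the sample labels. The hMYC-ER fish carry human MYC as a fusion with a domain of the oestrogen receptor. The hlk fish are a zebrafish line prone to T cell malignancy. All 9 samples were labelled as T-lymphoblasts, sorted for green fluorescence (GFP) out of fish bodies when disease had reached its last stage. The sources used here do not give the fish's age, any treatment, the allele behind hlk, or the promoters that drive the transgene and GFP. Nothing in the labels states that each array is a different fish, so the p-values reflect only the spread between these arrays, part of which may be technical.

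Acetyltransferases loosen chromatin by acetylating histones, and deacetylases reverse this. Lysine methyltransferases of the KMT2 family mark active promoters and enhancers, whereas the Polycomb complexes, with EZH2 as the catalytic subunit of one of them, mark and compact silent genes. In human T cell leukaemia, members of several of these families are recurrent targets of mutation, among them EZH2, SUZ12 and the H3K27 demethylase gene KDM6A. Roles given below are those known for the mammalian proteins.

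Several facts about the arrays bear on the results. Array medians of the deposited signal lay between 88.9 and 110.3. On hlk array 7 the ratio of the 3' to the 5' control probe sets of gapdhs, a measure of RNA integrity, was 50.8, against 2.2 to 4.5 on the other arrays. All 9 measured B cell marker genes of 22 listed were higher in hMYC-ER. Their summed linear signal was 57200 to 71200 on the hMYC-ER arrays and 5390 to 8370 on the hlk arrays. The B cell factor gene pax5 had a mean log2 signal of 11.09 in hMYC-ER and was near the floor in hlk, at 4.31. Of the 11 measured T cell markers of 33 listed, 5 passed towards hlk and 0 towards hMYC-ER in the limma test used below. Their summed signal was 4350 to 6640 in hMYC-ER and 29900 to 37900 in hlk. The T cell receptor gene trac averaged 7.02 and 11.61. The other 6 measured T cell markers did not pass. Of the 11, 5 had a higher mean in hMYC-ER, namely rag2 (by 1.25), tox, thy1, cd28 and lef1 (by 0.22). High B cell marker signal, and low signal of the T cell markers that passed, go against the T-lymphoblast label in hMYC-ER. The part of these markers in the results on chromatin genes was not tested. In bulk samples, fewer cells of a type and less RNA per cell cannot be told apart. Of 25 measured markers of proliferating cells, 0 passed the limma test in either direction. Their summed signals overlapped, at 39200 to 82800 in hMYC-ER and 46200 to 86600 in hlk. Markers of erythroid cells (13 measured), thrombocytes (4) and muscle and skin (14) gave 0 calls in limma. The summed muscle and skin signal was 1980 on hlk array 7, against 567 and 539 on the other hlk arrays and 443 to 682 in hMYC-ER. The summed erythroid signal was 1200 on that array, against 653 and 603, and 855 to 1190 in hMYC-ER. Of 13 neutrophil and macrophage markers, 1 passed in each direction, and of 8 thymic stroma markers, 1 passed towards hMYC-ER.

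Differences below are hMYC-ER minus hlk in log2 signal, so that negative values mean higher signal in hlk. A gene passed at an adjusted p of 0.05 in limma, with adjustment over all 8793 genes. Signals were set to at least 4 on the log2 scale. Among the 104 chromatin genes, 36 passed, 27 of them towards hlk and 9 towards hMYC-ER, and 68 did not. These are shares of 26.0% and 8.65%. Of all genes, 11.6% passed towards hlk, 10.4% towards hMYC-ER and 22.0% in either direction, against 34.6% of the chromatin genes. The median difference was -0.26 for the chromatin genes and -0.08 for all genes. The groups did not overlap for 26 chromatin genes on the hlk side and 9 on the hMYC-ER side, where 12.5% and 10.7% of all genes did not overlap in these directions, 23.1% in all. These were 34 of the genes that passed and arid4a, which did not pass (-0.53, adjusted p 0.0509). A fit without hlk array 7 gave 26 genes towards hlk (25.0%, against 10.8% of all genes) and 11 towards hMYC-ER (10.6%, against 11.5%).

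Chromatin genes were well detected. Signals lay above the floor on all 9 arrays for 95 of them (91.3%), against 66.9% of all genes. When the dimmest 1 in 3 probe sets were left out, 98 chromatin genes remained in the fit. Of these, 27 (27.6%) passed towards hlk and 9 (9.18%) towards hMYC-ER, beside 15.4% and 14.8% of all genes in that fit. Role groups below are set beside 22.0% of all genes, a share from the fit that keeps the dim probe sets. The share of all genes was larger without them, so a role group somewhat above 22.0% need not stand out among well-detected genes. The size of the differences was not the same on either side, among chromatin genes or among all genes. A difference of at least 2-fold was found for 13 of the 27 genes higher in hlk and for 8 of the 9 genes higher in hMYC-ER. Among all genes that passed, it was found for 511 of 1016 higher in hlk and for 643 of 916 higher in hMYC-ER. Of all genes, 5.81% and 7.31% passed with at least this size in these directions.

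**Figure D1:**
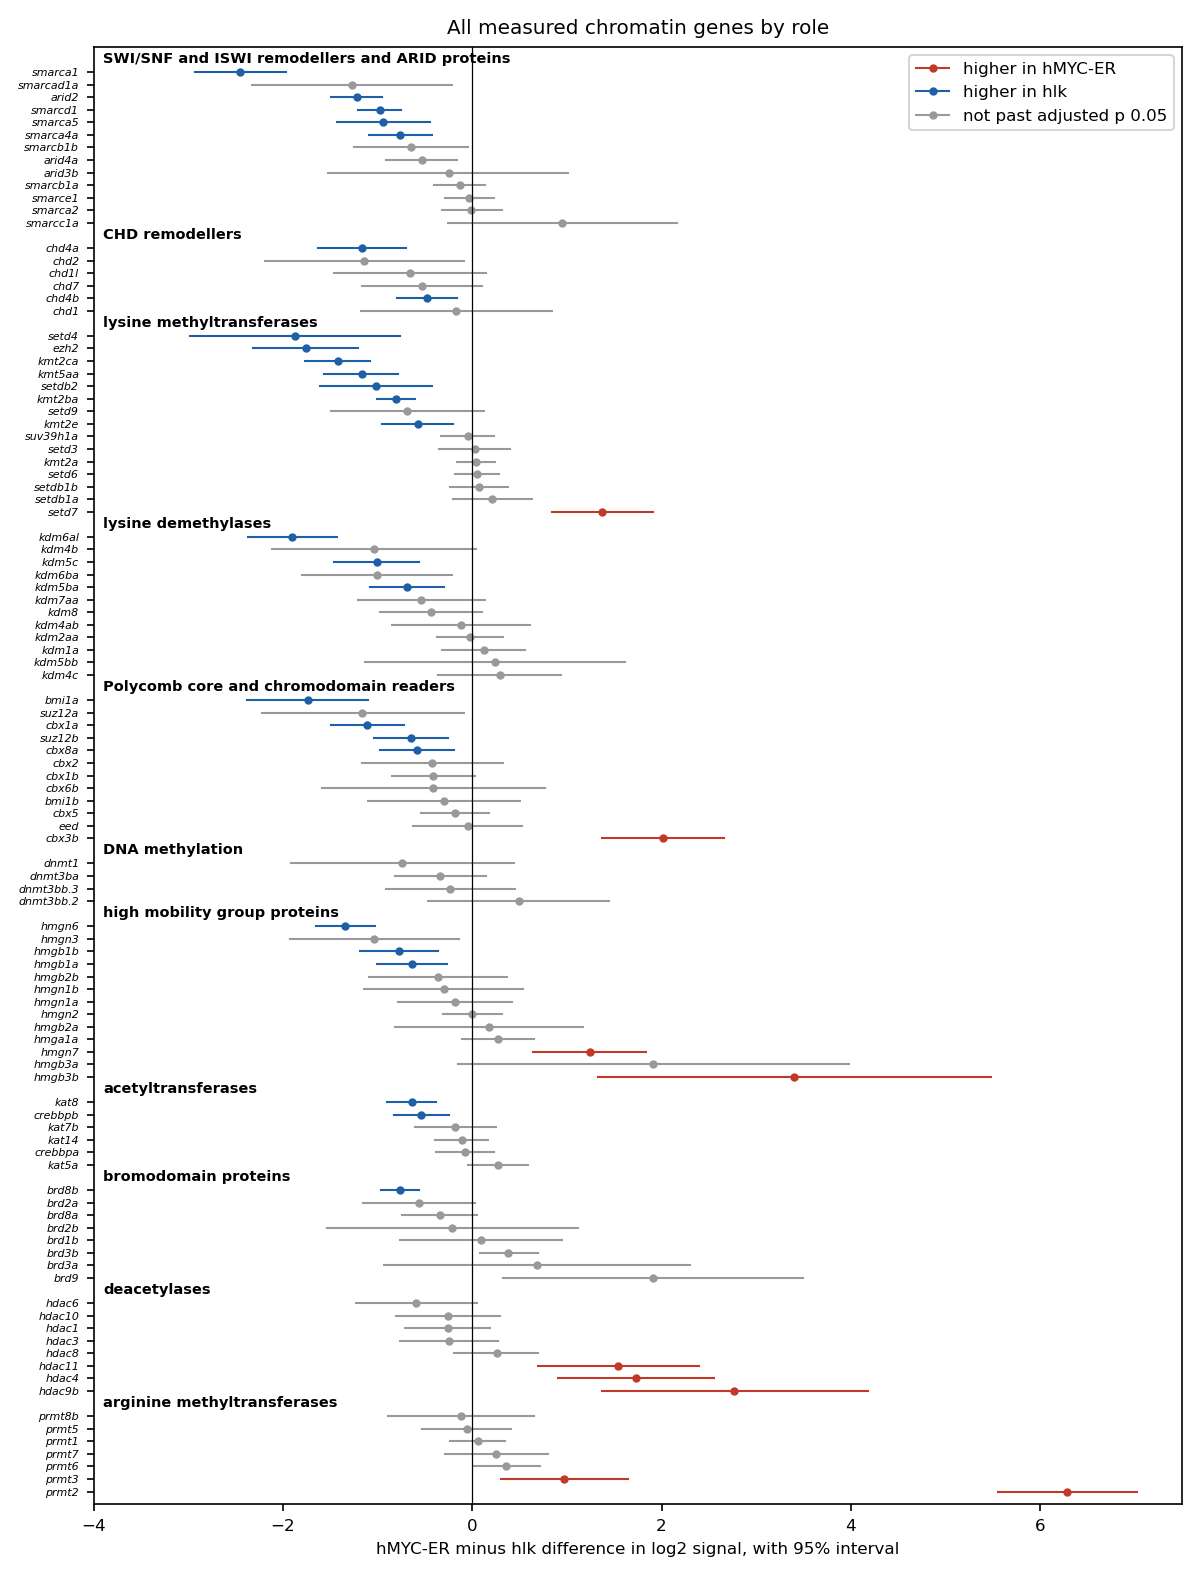
Difference between hMYC-ER and hlk in log2 signal (horizontal axis) for each of the 104 chromatin genes, grouped by role. Points are limma estimates and lines their 95% intervals, unadjusted for the number of genes; of the genes past the threshold, 27 lie to the left of 0 and 9 to the right, with prmt2 farthest at 6.29.

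The largest difference belonged to prmt2, a gene for an arginine methyltransferase that acts on histone H3 and is also a coactivator of nuclear receptors. Its log2 signal on the hMYC-ER arrays had a lowest value of 10.55, a median of 10.94 and a highest value of 11.29. On hlk arrays 7, 8 and 9 it was 5.51, 4.00 and 4.50, of which the value on array 8 is the floor. All hMYC-ER arrays were far above all hlk arrays. The difference was 6.29 (SE 0.32, adjusted p 7.4e-06), a 78.3-fold change of the fitted means that the floor understates. Its range was 5.96 to 6.71 when arrays were left out in turn.

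Of 7 measured arginine methyltransferase genes, 1 more passed (28.6% with prmt2, against 22.0% of all genes). The gene prmt3, whose enzyme methylates a protein of the small ribosomal subunit, had 9.94, 10.06 and 10.18 as lowest, median and highest values in hMYC-ER. In hlk it had 9.83, 9.24 and 8.21. The hMYC-ER values lay close together and the hlk values were spread below them. The difference of 0.97 (SE 0.30, adjusted p 0.048) passed narrowly. Its call ended when any 1 array other than array 7 was left out, with adjusted p of up to 0.0881, and the difference fell to 0.53 without hlk array 9. The genes of the major enzymes of the family did not pass. They were prmt1, the main asymmetric arginine methyltransferase (0.06, 95% interval -0.23 to 0.35), and prmt5, the main symmetric one (-0.06, 95% interval -0.53 to 0.41).

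Deacetylase genes that passed were all higher in hMYC-ER, 3 of 8 (37.5%, against 22.0% of all genes in either direction). The 3 were hdac9b and hdac4, of class IIa, whose enzymes shuttle between cytoplasm and nucleus and repress MEF2 factors, and hdac11, the class IV deacetylase. In hMYC-ER, hdac9b ran from 7.01 to 9.86 with a median of 7.59, and on hlk arrays 7, 8 and 9 it was 4.87, 5.69 and 5.26. It had the largest SD within hMYC-ER of the 36 genes that passed (1.08, n = 6), at 9.86 on array 2 and 8.82 on array 6 against 7.01 to 7.73 on the others, and still did not overlap hlk. The difference was 2.77 (SE 0.61, adjusted p 0.0136). Its call ended with a floor of 64 (2.05, adjusted p 0.0615) and with array weights (2.79, adjusted p 0.0652).

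For hdac4 the hMYC-ER values ran from 7.55 to 8.47 with a median of 8.18. The hlk values were 5.42, 6.93 and 6.76, lowest on array 7. The difference was 1.73 (SE 0.36, adjusted p 0.0102), and it was 1.25 without array 7 (adjusted p 0.0145). The gene hdac11 ran from 6.80 to 7.99 in hMYC-ER, with a median of 7.27, and stood at 4.95, 5.69 and 6.58 in hlk. Its difference of 1.54 (SE 0.37, adjusted p 0.0196) was 1.15 without hlk array 7 (adjusted p 0.0576) and 1.52 without hlk array 8 (adjusted p 0.0586).

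The class I genes, which encode mainly nuclear deacetylases, did not pass. Differences were -0.26 for hdac1 (95% interval -0.71 to 0.19), -0.25 for hdac3 (95% interval -0.76 to 0.27) and 0.26 for hdac8 (95% interval -0.19 to 0.70). All 3 intervals, each of the brightest probe set, lie within a 2-fold change. A dimmer probe set of hdac3 pointed the other way (1.16, SE 0.63) and did not pass. Without hlk array 7, hdac3 turned to 0.09 by its brightest probe set. Without hlk array 7, hdac1 passed towards hlk (-0.52, adjusted p 0.0359) and hdac8 towards hMYC-ER (0.51, adjusted p 0.0399). The class IIb genes hdac6 (-0.59, adjusted p 0.18) and hdac10 (-0.26) did not pass.

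Of 6 measured acetyltransferase genes, 2 passed (33.3%, against 22.0% of all genes), both higher in hlk. They were kat8, for the enzyme that acetylates lysine 16 of histone H4 (-0.64, SE 0.11, adjusted p 0.00485), and crebbpb, for a CBP coactivator (-0.54, SE 0.13, adjusted p 0.0167). With the mean of its 2 probe sets, crebbpb was -0.36 and did not pass (adjusted p 0.268). The 3 hlk values of its brighter probe set, 11.05, 11.10 and 11.09, were nearly equal. The differences of all 6 ran from -0.64 to 0.27.

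**Figure D2:**
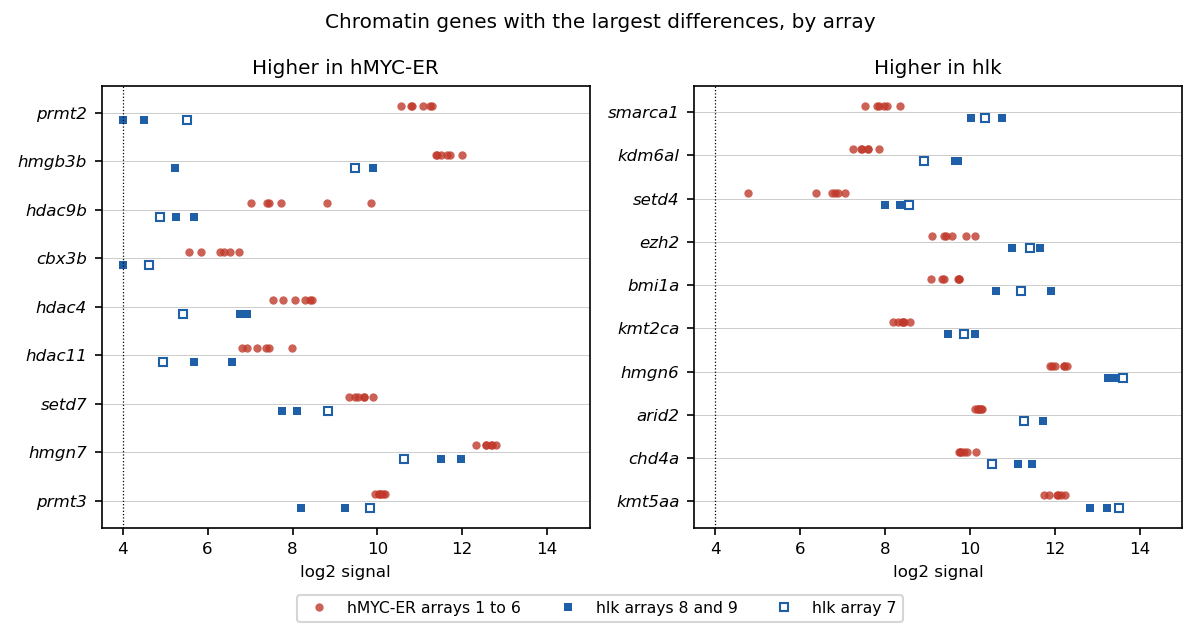
Log2 signal on each array (horizontal axis; the dotted line is the floor of 4) for the 9 chromatin genes that passed towards hMYC-ER without overlap and the 10 largest towards hlk. Circles are hMYC-ER arrays, filled squares hlk arrays 8 and 9, and the open square hlk array 7; the values of hmgb3b on hlk array 9 (5.24) and of setd4 on hMYC-ER array 6 (4.76) lie apart from their groups.

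Of 15 genes grouped by name as lysine methyltransferases, 7 passed towards hlk and 1 towards hMYC-ER, with a group median of -0.57. Together these were 53.3%, against 22.0% of all genes. The gene ezh2, the catalytic subunit of Polycomb repressive complex 2, which methylates lysine 27 of histone H3, had 9.11, 9.51 and 10.13 as lowest, median and highest hMYC-ER values. The hlk values were 11.42, 11 and 11.65. The difference was -1.76 (SE 0.24, adjusted p 0.00141), a 3.39-fold higher signal in hlk, and it ran from -1.94 to -1.62 when arrays were left out. All 3 of its probe sets pointed to hlk, and 2 of them passed when probe sets were tested.

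The genes kmt2ca and kmt2ba, of the KMT2 family of large methyltransferases of lysine 4 of histone H3, were also higher in hlk. The gene kmt2ca, related to mammalian KMT2C of the enhancer complexes, ran from 8.18 to 8.60 in hMYC-ER with a median of 8.41, and was 9.86, 10.11 and 9.48 in hlk (-1.42, SE 0.15, adjusted p 3.9e-04). The gene kmt2ba, a promoter-bound relative, differed by less (-0.81, SE 0.09, adjusted p 4.7e-04) with an SD of 0.09 over the hMYC-ER arrays (n = 6) and 0.08 over the hlk arrays (n = 3). The gene kmt2e, a divergent member, differed by -0.57 (SE 0.16, adjusted p 0.0372). Its groups overlapped, and its call ended without any 1 array other than arrays 6 and 7, with -0.49 (adjusted p 0.115) without hlk array 8. It also ended with the mean of its 2 probe sets (-0.62, adjusted p 0.124). The probe set of kmt2a lay at the floor on 7 of 9 arrays and gave no usable level.

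Other enzymes of this group act on different residues. The gene kmt5aa, for the methyltransferase of lysine 20 of histone H4, ran from 11.75 to 12.24 in hMYC-ER with a median of 12.06, and was 13.52, 12.82 and 13.24 in hlk (-1.17, SE 0.17, adjusted p 0.00202). The gene setdb2, for a methyltransferase of lysine 9 of histone H3, differed by -1.02 (SE 0.26, adjusted p 0.0229), and it missed the threshold without hlk array 8 (-0.76, adjusted p 0.0733) or array 9 (-1.03, adjusted p 0.063), and with the mean of its 2 probe sets (-1.15, adjusted p 0.0688). The related genes setdb1a (0.21, and -0.45 by a dimmer probe set) and setdb1b (0.07) did not pass.

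The SET domain gene setd4 ran from 4.76 to 7.06 in hMYC-ER with a median of 6.79, and was 8.57, 8.35 and 8.01 in hlk. The value on hMYC-ER array 6 was far below the others of its model. The difference of -1.87 (SE 0.48, adjusted p 0.026) lost its call without any 1 of hMYC-ER array 3 and hlk arrays 7, 8 and 9, with values of -2.02 to -1.74 and adjusted p of 0.0516 to 0.0786. In the opposite direction, setd7, whose enzyme monomethylates lysine 4 of histone H3 and several other proteins, ran from 9.32 to 9.90 in hMYC-ER with a median of 9.61. It was 8.84, 8.10 and 7.75 in hlk (1.37, SE 0.23, adjusted p 0.00393).

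Demethylase genes that passed were all higher in hlk, 3 of 12 (25.0%, against 22.0% of all genes in either direction). The first was kdm6al, a relative of mammalian KDM6A, whose enzyme removes methyl groups from lysine 27 of histone H3 and so opposes EZH2. It ran from 7.24 to 7.87 in hMYC-ER with a median of 7.52, and was 8.92, 9.66 and 9.72 in hlk (-1.90, SE 0.20, adjusted p 4.2e-04). Thus kdm6al and ezh2 were higher in the same model. The difference of kdm6al was -1.0 when its 3 probe sets were averaged (adjusted p 0.0575), and the other 2 probe sets, dimmer than the first, differed by -0.37 and -0.75.

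The other 2 encode demethylases of lysine 4 of histone H3, kdm5c (-1.01, SE 0.20, adjusted p 0.00754) and kdm5ba (-0.69, SE 0.17, adjusted p 0.0206). For kdm5ba the threshold was missed without hlk array 7 (-0.68, adjusted p 0.0527) or array 9 (-0.65, adjusted p 0.0676). Its paralogue kdm5bb was spread widely in hMYC-ER (SD 1.05, n = 6) and gave 0.24 (95% interval -1.13 to 1.61). Values for kdm6ba, another H3K27 demethylase gene (-1.01, adjusted p 0.0736), and kdm4b (-1.04, adjusted p 0.158) did not pass. Dimmer probe sets of kdm4b gave 0.92, 0.35 and -1.2, and none passed. Neither did kdm1a, the LSD1 gene (0.12, and -0.13 without hlk array 7).

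Of the 12 genes in the group of Polycomb subunits and chromodomain readers, 4 passed towards hlk and 1 towards hMYC-ER. Together these were 41.7%, against 22.0% of all genes. The gene bmi1a, a RING finger subunit of Polycomb repressive complex 1, ran from 9.08 to 9.75 in hMYC-ER with a median of 9.56, and was 11.20, 11.91 and 10.62 in hlk (-1.74, SE 0.28, adjusted p 0.00309). The gene cbx8a, which encodes a Polycomb chromodomain protein, differed by -0.58 (SE 0.17, adjusted p 0.0424), and suz12b, a scaffold of the EZH2 complex, by -0.65 (SE 0.17, adjusted p 0.0266). Neither of these smaller calls was kept throughout. That of cbx8a ended without any 1 array other than array 7, with -0.39 (adjusted p 0.115) without hlk array 8. That of suz12b ended without any 1 of hMYC-ER arrays 2, 4 and 6 and hlk arrays 7, 8 and 9, with values of -0.68 to -0.62 and adjusted p of up to 0.0733.

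The second suz12 copy and eed, of the same complex, did not pass. For suz12a the hlk values were 7.13, 9.28 and 8.92, and the difference of -1.16 (adjusted p 0.118) was -1.81 without array 7 (adjusted p 0.00566). For eed, the histone-binding subunit, the difference was -0.05 (95% interval -0.63 to 0.53). Other subunits outside the family names, aebp2 (-0.51, adjusted p 0.149), rbbp4 (-0.57, adjusted p 0.225) and rbbp7 (-0.08), did not pass either, and differences between subunits were not tested.

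Heterochromatin protein 1 genes, whose products bind methylated lysine 9 of histone H3, went opposite ways. The gene cbx1a (HP1 beta) was higher in hlk, where it averaged 11.46 ± 0.24 (SD, n = 3) against 10.35 ± 0.23 (SD, n = 6) (-1.11, SE 0.17, adjusted p 0.00232). The gene cbx3b (HP1 gamma) ran from 5.55 to 6.74 in hMYC-ER with a median of 6.34, and was 4.62 on hlk array 7 and at the floor on arrays 8 and 9 (2.02, SE 0.28, adjusted p 0.00153). This dim gene lost its call with a floor of 64 (0.32, adjusted p 0.256). The gene cbx5 (HP1 alpha) did not pass (-0.18).

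In the group of SWI/SNF, ISWI and ARID genes, 5 of 13 passed (38.5%, against 22.0% of all genes), all towards hlk. The ISWI gene smarca1, whose product spaces nucleosomes, had the largest difference towards hlk of all 104 genes. It ran from 7.52 to 8.35 in hMYC-ER with a median of 7.92, and was 10.35, 10.75 and 10.03 in hlk (-2.45, SE 0.21, adjusted p 1.2e-04), a 5.47-fold higher signal in hlk. The difference ran from -2.63 to -2.27 when arrays were left out. Its relative smarca5, the main ISWI ATPase of proliferating cells, differed by -0.94 (SE 0.21, adjusted p 0.0151), and by -0.83 without hlk array 9 (adjusted p 0.0584).

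SWI/SNF complexes slide and evict nucleosomes. The gene arid2, a subunit of the PBAF form, ran from 10.13 to 10.28 in hMYC-ER with a median of 10.21, and was 11.27, 11.73 and 11.31 in hlk (-1.22, SE 0.12, adjusted p 2.4e-04, with both probe sets passing). The gene smarcd1 had hlk values of 11.60, 11.58 and 11.55, against a highest hMYC-ER value of 10.73 (-0.98, SE 0.10, adjusted p 3.3e-04). The ATPase gene smarca4a differed by -0.76 (SE 0.14, adjusted p 0.00692), whereas the alternative ATPase gene smarca2 gave -0.01. Core subunits smarce1 (-0.03), smarcb1a (-0.13) and smarcb1b (-0.65, adjusted p 0.115) did not pass. Nor did the core subunit gene smarcc1a (0.95, adjusted p 0.25), the 1 gene of the 13 with a difference above 0. It was dim, and at the floor on hlk array 7.

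For 2 of these ATPase genes the dimmer probe sets pointed the other way. The other probe set of smarca4a gave 0.26, with hlk values of 7.11, 10.06 and 10.14. The other probe sets of smarca5 gave 0.94, with hlk values of 4.59, 7.60 and 6.68, and 0.69, with hlk values of 4.00, 6.45 and 7.25. In all 3 of these probe sets the hlk array with the poor gapdhs ratio, array 7, was the lowest of the hlk arrays, and none of them passed. With the mean of all probe sets, smarca5 turned to 0.23 (adjusted p 0.776) and smarca4a fell to -0.25 (adjusted p 0.591).

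Most CHD genes encode chromodomain helicases, of which CHD4 is the ATPase of the NuRD deacetylase complex. Of 6 genes, 2 passed (33.3%, against 22.0% of all genes), both towards hlk. By the brightest probe sets all 6 differences were below 0. Dimmer probe sets of chd1 (1.1) and chd7 (0.12) lay above 0 and that of chd2 (-0.7) below, and none of these passed. The gene chd4a ran from 9.74 to 10.15 in hMYC-ER with a median of 9.82, and was 10.51, 11.14 and 11.47 in hlk (-1.17, SE 0.20, adjusted p 0.00445). For its paralogue chd4b the difference was -0.48 (SE 0.14, adjusted p 0.0421). The groups overlapped for chd4b, at 11.72 on hlk array 7 and up to 11.75 in hMYC-ER, and its call ended without any 1 array other than array 7, down to -0.36 (adjusted p 0.132) without hlk array 9. Its other probe sets gave -0.97 and 0.39, and the mean of all 3 gave -0.35 (adjusted p 0.457). The genes chd2 (-1.14, adjusted p 0.116), chd7 (-0.53) and chd1 (-0.17) did not pass.

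Bromodomain genes, whose products read acetylated histones, contributed 1 call of 8 (12.5%, against 22.0% of all genes). The call was for brd8b, a subunit of the NuA4 acetyltransferase complex. It averaged 10.97 ± 0.01 (SD, n = 3) in hlk, against 10.21 ± 0.09 (SD, n = 6) (-0.76, SE 0.09, adjusted p 6.0e-04). The BET genes, whose products recruit transcription elongation factors and are the targets of BET inhibitors, did not pass, with brd2a at -0.56, brd2b at -0.21, brd3a at 0.68 and brd3b at 0.38. A second probe set of brd2a, dimmer than the first, passed towards hlk (-1.20, adjusted p 0.00763 over all probe sets). Further probe sets of brd2a gave -0.09 and -1.17. A dimmer probe set of brd3a gave -0.61, opposite to the first, and those of brd3b gave -0.11, -0.09 and 1.12. None of these passed. The SWI/SNF reader gene brd9 had the joint largest difference among genes that did not pass (1.91, adjusted p 0.0861), with hlk values of 4.82, 6.98 and 7.29 and a value of 1.14 without hlk array 7.

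DNA methyltransferase genes gave no call among the 4 measured (limma, with 0 also at an unadjusted p of 0.05). The share among all genes was 22.0%, and 4 genes are few. The maintenance enzyme gene dnmt1 ran from 9.04 to 10.96 in hMYC-ER, and was 9.86, 10.93 and 11.78 in hlk. The groups overlapped and the difference was -0.74 (95% interval -1.92 to 0.44, adjusted p 0.357). For the de novo enzyme gene dnmt3ba it was -0.34 (adjusted p 0.305), and 0.33 by a dimmer probe set that did not pass.

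High mobility group proteins bind and bend DNA (HMGB, HMGA) or bind nucleosomes and counter compaction (HMGN). Of 13 genes, 3 passed towards hlk and 2 towards hMYC-ER (38.5% in all, against 22.0% of all genes). The gene hmgn6 ran from 11.88 to 12.28 in hMYC-ER with a median of 12.11, and was 13.62, 13.41 and 13.25 in hlk (-1.34, SE 0.13, adjusted p 3.0e-04). The gene hmgn7 went the other way, from 12.33 to 12.80 with a median of 12.62 in hMYC-ER, and 10.63, 11.49 and 11.98 in hlk (1.24, SE 0.26, adjusted p 0.0113). The abundant hmgn2 gave 0.00 (95% interval -0.31 to 0.31). By the probe set names, hmgn7, hmgn1a and hmgb3a were designed from the same cluster of transcripts, so that their annotation to separate genes is uncertain. The same holds for cbx5 and hmgb2a.

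HMGB genes passed in both directions. The genes hmgb1a (-0.64, SE 0.16, adjusted p 0.0238) and hmgb1b (-0.77, SE 0.18, adjusted p 0.017) were higher in hlk by similar amounts. Both calls ended without hlk array 7 (-0.49, adjusted p 0.067, and -0.61, adjusted p 0.0504), that of hmgb1a also without array 8 (-0.67, adjusted p 0.051) and that of hmgb1b without array 9 (-0.75, adjusted p 0.0543). The genes hmgb2a (0.18, and -0.37 without hlk array 7) and hmgb2b (-0.36), whose mammalian orthologue is tied to proliferation, did not pass. A dimmer probe set of hmgb2b gave 0.58 and did not pass either.

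The gene hmgb3b, a relative known in mammals from haematopoietic progenitors, was higher in hMYC-ER. It ran from 11.38 to 12 there with a median of 11.57, and was 9.48, 9.89 and 5.24 in hlk (3.40, SE 0.90, adjusted p 0.0287). The hlk values did not overlap those of hMYC-ER but were themselves far apart, with array 9 lowest. Without hlk array 9 the difference was 1.92 (adjusted p 9.3e-04). Without any 1 hMYC-ER array it was 3.32 to 3.45 and did not pass (adjusted p of up to 0.0573). Its paralogue hmgb3a was at 7.48, 11.59 and 7.78 in hlk and overlapped hMYC-ER (1.91, adjusted p 0.174). Without hlk array 8 it gave 3.23 (adjusted p 0.00601).

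**Figure D3:**
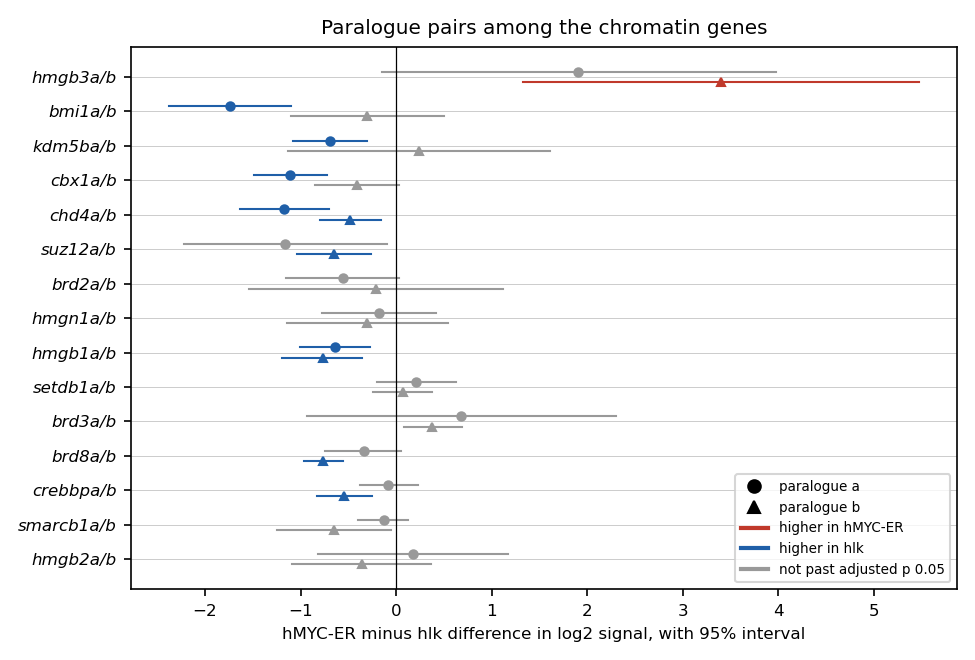
Difference between hMYC-ER and hlk in log2 signal (horizontal axis) for the 15 pairs of paralogues with an a and a b copy, as limma estimates with unadjusted 95% intervals. Both copies passed, towards hlk, for hmgb1 and chd4, and in the other pairs at most 1 copy did.

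Zebrafish carry duplicates of many genes from a genome duplication in the ancestor of teleost fish, and 15 pairs of a and b copies were measured. Both copies passed in 2 pairs, hmgb1 and chd4. Whether the copies differed in their response was tested on the log2 ratio of the 2 copies on each array, with an exact two-sided permutation test over all 84 splits of the arrays, whose smallest possible p is 0.0119. This test was chosen after the values had been seen. The ratio did not overlap between models for 3 pairs, each with an exact p of 0.0119 and an adjusted p of 0.0595 over the 15 pairs, so that no pair passed after adjustment. With 15 pairs and this smallest p, 3 separated pairs cannot fall below 0.05 after adjustment whatever their size, so the test says little about whether copies differ.

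In those 3 pairs, the copies of chd4 differed by -1.17 and -0.48, those of cbx1 by -1.11 and -0.41, and those of crebbp by -0.08 and -0.54, copy a first. For bmi1 the values were -1.74 and -0.30, and the log2 ratio of the copies overlapped between models (exact p 0.0357, adjusted p 0.119). For hmgb1 the copies differed by 0.14 from each other (exact p 0.321). Cross-hybridisation between copies was not tested.

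**Figure D4:**
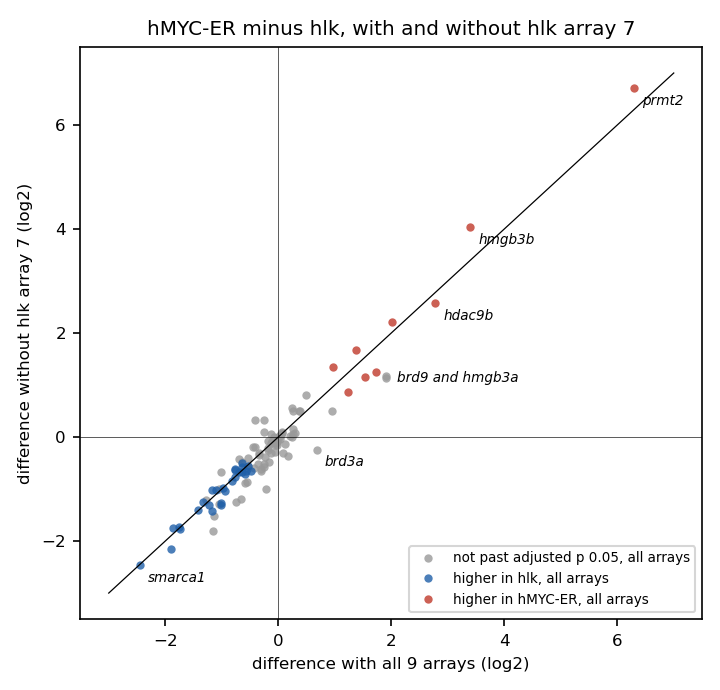
Difference between hMYC-ER and hlk in log2 signal with all 9 arrays (horizontal axis) and without hlk array 7 (vertical axis) for each of the 104 chromatin genes, coloured by the call with all arrays. Most genes lie near the line of equality; brd3a moved from 0.68 to -0.24 and hmgb3b from 3.40 to 4.04.

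Spread within the models was uneven. The median SD over the 104 genes was 0.24 in hMYC-ER and 0.42 in hlk, against 0.33 and 0.43 over all genes. For 54 of the 104 genes (51.9%), array 7 was the hlk array farthest from the other 2, compared with 46.0% of all genes, and it departed by more than 1 for 21 of them (20.2%, against 22.1% of all genes). Among the hMYC-ER arrays, array 1 departed by more than 1 for 9 genes (8.65%, against 9.2% of all genes) and each of the others for 2 to 4. Without array 7, 30 of the 36 calls were kept. The 6 that ended belonged to suz12b, hdac11, hmgb1a, hmgb1b, kdm5ba and setd4, and 7 other genes gained a call, namely suz12a, chd1l, brd2a and hdac1 towards hlk and prmt6, brd3b and hdac8 towards hMYC-ER.

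The 68 genes that did not pass had differences from -1.27 to 1.91. For 39 of them the 95% interval lay within a 2-fold change in either direction, and 8 had an estimate of at least 2-fold. These were smarcad1a (-1.27), suz12a, chd2, kdm4b, hmgn3 (-1.04) and kdm6ba on the hlk side, and brd9 and hmgb3a on the hMYC-ER side. For the rest, the arrays did not limit the difference to under 2-fold.

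Other genes of the same complexes, which the family names do not take in, were read from lists of partner subunits and cofactors. Of 114 measured genes of 203 listed, 25 (21.9%) passed towards hlk and 8 (7.02%) towards hMYC-ER, while 81 did not pass. The shares of all genes in these directions were 11.6% and 10.4%. The median difference of the listed genes was -0.20. Among remodelling complex genes, 7 of 28 were higher in hlk, including hells, a SNF2 helicase needed for DNA methylation (-1.97, adjusted p 0.00348), the INO80 subunit gene ino80db (-1.40, adjusted p 6.1e-04), the PBAF subunit gene phf10 (-0.71, adjusted p 0.00269) and atrx (-0.58, adjusted p 0.0158). The last lost its call without hlk array 9. The 1 gene towards hMYC-ER, the SWI/SNF subunit gene bcl7ba (0.99, adjusted p 0.0489), lost it without any 1 array other than arrays 6 and 7 and was 0.61 to 1.30 over the arrays left out.

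Among acetylation complex genes, 9 of 37 were higher in hlk (24.3%, against 11.6% of all genes). They included hat1, for the enzyme that acetylates newly made histone H4 (-1.08, adjusted p 0.014, a call that ended without hlk array 9, with -1.23 to -0.89 over the arrays left out), and the corepressor scaffold gene sin3aa (-0.56, adjusted p 0.00883). The genes meaf6 (-0.65, adjusted p 0.00613) and mrgbp (-0.75, adjusted p 0.00696), for subunits of the NuA4 complex, were also higher in hlk. Of other genes of that complex, brd8b passed towards hlk, as given above. So did ruvbl1 (-0.45, adjusted p 0.0219), but not without hlk array 7 (-0.41, adjusted p 0.0528). The genes epc2 (0.41), morf4l1 (0.30), trrap (-0.59), ing3 (-0.40) and that of the catalytic subunit, kat5a (0.27), did not pass. Neither did ruvbl2 (0.35), dmap1 (0.07) and actl6a (0.02), from the list of remodelling complex genes. The NuRD subunit gene gatad2ab was the 1 of 37 higher in hMYC-ER (2.7%, against 10.4% of all genes). It differed by 1.1 (adjusted p 0.00516), opposite to chd4a.

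Of 17 methylation writers and cofactors, 5 passed towards hlk (29.4%, against 11.6% of all genes) and 2 towards hMYC-ER (11.8%, against 10.4%). The KMT2 cofactor genes wdr5 (-0.55, adjusted p 0.0278), men1 (-0.74, adjusted p 0.0356) and rbbp5 (-0.52, adjusted p 0.0379) lay in the same direction as kmt2ba and kmt2ca. All 3 calls ended without hlk array 7 (-0.45, -0.60 and -0.41), and also without arrays 2, 3, 5, 6 and 9 for wdr5, without any 1 array other than array 1 for men1, and without any other than arrays 5 and 8 for rbbp5. Further cofactor genes of the list, ash2l (-0.16), cxxc1b (-0.31) and paxip1 (-0.3), did not pass. The NuRD gene mbd3b was higher in hlk (-1.23, adjusted p 0.0084) and its relative mbd2 in hMYC-ER (0.99, adjusted p 0.00523). The other mbd3 copy, mbd3a, had a higher signal than mbd3b in both models and did not pass (0.12, adjusted p 0.77). The gene nsd2, for a methyltransferase of lysine 36 of histone H3, differed by -1.82 (adjusted p 0.0295), and its call ended without hMYC-ER array 4 or 6 or hlk array 7 or 9, with -1.72 without array 7 (adjusted p 0.0833). The methyltransferase gene smyd2a was higher in hMYC-ER (1.42, adjusted p 0.00115). Of 10 other Polycomb genes, 1 passed, phc2b, towards hlk (-1.69, adjusted p 0.0407), and its call ended without any 1 array other than arrays 2, 4 and 6.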

How the data were processed

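Biotin-labelled RNA of 9 samples was hybridised to Affymetrix zebrafish arrays, 1 per sample, per the labels' protocols. The authors deposited linear probe set intensities, which share a mean of 500.1 to 500.2 once the 2% lowest and highest are trimmed. The sources used here do not name the algorithm, and no detection calls were used. The number of arrays limits the precision.

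Array medians lay up to 0.31 apart in log2 signal, over a limit of 0.1, so the 15617 probe sets were quantile normalized. The 115 controls were then left out, signals floored at 16 and put on the log2 scale. Of 15502 probe sets, 10795 had 1 gene symbol, 135 several and 4572 none. Platform symbols were updated by Entrez identifier from the GRCz12tu gene table. The brightest probe set by mean stood for each of 8793 genes.

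Models were compared with limma 3.58.1 (lmFit, eBayes) in R 4.3.3 over all genes, without covariates, since the labels give no batch, and with Benjamini-Hochberg adjustment. Figures used Python 3.11.15 and matplotlib 3.10.9. The code was tested on simulated data. Lists outside the family names are described by counts and medians. Every member past the threshold is named, with array values for up to 10 per direction that had the largest differences without overlap. Members that did not pass are named where they differ by 1 or more, are a paralogue of a named gene or lead a group without a call, and others were named after their values were seen. Members and lists were chosen with earlier results of these data known. The sequences of promoters and proteins were not analysed here.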

Additional observations from a re-analysis of the deposited data

Results flagged for a closer look

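This check covered 49 genes, namely those that passed, those that differed by at least 1, and the other copy of a gene that passed. Their 6 hMYC-ER values were examined for a single array set apart by more than Dixon's 95% critical value of 0.625 of the range. Of these 49 genes, 3 met it, about the 1 in 20 that chance gives. Other genes named above were not examined by it. Among them, brd3a was 8.75 on array 1, against 10.36 to 10.78 on the other hMYC-ER arrays. Likewise, chd1 was 5.11 on array 1, against 6.62 to 7.03, and hdac3 was 10.42 on array 4, against 10.12 to 10.17. The value of setd4 on hMYC-ER array 6 was 4.76, against 6.37 to 7.06 on the other 5 arrays. The value of kdm5ba on array 5 was 10.14, against 10.63 to 10.91. The value of brd8a on array 5 was 7.60, against 7.98 to 8.19, and brd8a did not pass the test between models. Groups of 3 are too small for this check, so the hlk arrays were not examined by it.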

How the results depend on the processing

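Of the 36 calls, 23 were kept whichever array was left out. Of these, 18 were also kept under every other alternative, the 2-fold minimum not counted. The number higher in hMYC-ER was 6 to 10 with other normalizations, floors, filters, priors, weights or probe set rules, and 7 to 11 when arrays were left out. The number higher in hlk was 19 to 29 and 19 to 26, and it was 13 with a 2-fold minimum. The median difference of the members moved from -0.26 to -0.37 when arrays were centred on their medians, while that of all genes moved from -0.08 to -0.18, and it ran from -0.36 to -0.17 over the arrays left out. With the mean of all probe sets, 7 of the 9 called genes with more than 1 probe set lost the call, and smarca5 among them turned to 0.23. Without hlk array 7, members that did not pass turned sign, namely brd3a (0.68 to -0.24), hmgb2a (0.18 to -0.37), cbx6b (-0.41 to 0.32), arid3b (-0.25 to 0.32), brd1b (0.09 to -0.31), hdac3 (-0.25 to 0.09), kdm1a (0.12 to -0.13), prmt8b (-0.12 to 0.05), setd3 (0.03 to -0.03), and, reaching about 0, crebbpa (-0.16 to 0.00 over the arrays left out) and kdm5bb (-0.00 to 0.48). The cause was not tested. Array weights ended 10 of the calls, a floor of 1 ended 4 and a floor of 64 ended 3. No paired analysis was possible because the 2 models share no sample numbers. The 3 hlk arrays, 1 of them with a high gapdhs ratio, limit the precision.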

Other observations

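Histone chaperone genes, whose products carry histones to and from DNA, passed in both directions. Of 22 measured of 32 listed, 4 (18.2%) passed towards hMYC-ER, 3 (13.6%) passed towards hlk and 15 did not pass, with a median of -0.20. Of all genes, 10.4% and 11.6% passed in these directions. The importin gene ipo4, whose product brings histones into the nucleus, averaged 12.04 ± 1.14 (SD, n = 3) in hlk, against 9.33 ± 0.26 (SD, n = 6). Its difference was -2.72 (SE 0.43, adjusted p 0.00276), and it was -2.16 without hlk array 7 (adjusted p 0.00345). The nucleosome assembly genes of the NAP1 family that passed differed in sign. The gene nap1l4a was higher in hMYC-ER (1.87, SE 0.33, adjusted p 0.00492). Its paralogue nap1l4b did not pass (-0.24, adjusted p 0.267). The gene nap1l1 was higher in hlk (-1.37, SE 0.38, adjusted p 0.034), and its call ended without any 1 array other than arrays 3 and 7, with values of -1.81 to -1.14 over the arrays left out. The nucleophosmin gene npm1a, an abundant nucleolar chaperone, differed by 0.57 (adjusted p 0.0132) and was kept whichever array was left out. The calls of setb (1.03, adjusted p 0.0304) and spty2d1 (0.44, adjusted p 0.0399) towards hMYC-ER both ended without any 1 of arrays 2, 3, 7 and 9, among others.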
